A study of Mus musculus with 2 samples.

Results

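Aggrecan, versican, cartilage link protein, the 4 matrilins, cartilage oligomeric matrix protein, chondromodulin and the small proteoglycan Snorc were followed in single cells of the mouse knee. They were chosen by name as the gene columns Acan, Vcan, Hapln1, Matn1, Matn2, Matn3, Matn4, Comp, Cnmd and Snorc, which are 10 of the 32245 genes listed for each cell, and all 10 were found for both genotypes. Knees of 2 to 3 female mice per genotype, 1 month old, were pooled and digested, and live cells negative for CD31, Ter119 and CD45 (markers of endothelium, red cells and leukocytes) were sorted and made into 1 library per genotype. Control cells were from Stat3fl/fl mice, whose Stat3 alleles are flanked by loxP sites and which lack Cre. Mutant cells were from Acan-Cre+/Cre;Stat3fl/fl mice, with the same floxed Stat3 alleles and a Cre placed in the Acan gene. By the study's methods this Cre is a tamoxifen-inducible CreERT2 and tamoxifen was given to the mice shortly after birth, so Stat3 was to be lost in cells that used the Acan promoter then, and in their descendants. Because the Cre sits in the Acan locus, an effect of that insertion on Acan cannot be told apart here from an effect of the loss of Stat3.

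The control library held 4903 cells and the mutant library 1340, with a median of 4344 and 3743 estimated unique molecules (UMIs) per cell. The authors marked 501 control and 332 mutant cells, and every marked cell had Sox9, the master transcription factor of cartilage, and Col2a1, the main cartilage collagen, above 0. Both genes were above 0 in 1013 control cells and 335 mutant cells. The marked cells held 0 with hemoglobin RNA, and 0 cells with both genes and no hemoglobin RNA were left unmarked. The cells with both genes that were not marked, many of them control cells and 3 of them mutant cells, thus all held hemoglobin RNA, and the Acan ratio over all of them is given with the comparison. The marked cells were deeper in the mutant library, at a median of 8595 UMIs against 5876, and 67 of the mutant marked cells against 20 of the control had more than 5% of mitochondrial reads. Levels are given in CPM, the UMIs of a gene summed over a group of cells per 1000000 of all their UMIs, and a log2 ratio compares such levels after adding 1 CPM to each. One library per genotype leaves no spread between animals, so nothing below is a test of genotype. The exact 95% binomial intervals given for shares of cells cover counting error alone, and a difference between the libraries may belong to the pools of mice, the sorts or the libraries.

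Cartilage resists load because aggrecan, a large proteoglycan laden with negatively charged chondroitin and keratan sulfate chains, is held in place on hyaluronan and draws water into a collagen mesh. Link protein, made by Hapln1, locks aggrecan and its relative versican, made by Vcan, onto hyaluronan. Matrilins are oligomeric adaptor proteins that join collagen fibrils to one another and to proteoglycans, and COMP, a member of the thrombospondin family, is a pentameric adaptor that binds collagens and is also abundant in tendon. Chondromodulin, made by Cnmd, is a transmembrane glycoprotein known for keeping blood vessels out of cartilage, and Snorc is a small transmembrane chondroitin sulfate proteoglycan found in cartilage.

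In the mouse annotation (GENCODE M21, GRCm38) Acan lies on the plus strand at chr7:79053483-79115099, and its 3′ end is 2 bases from that of Hapln3, a link protein gene on the opposite strand. Hapln1 (chr13:89539796-89611652, plus strand) and Vcan (chr13:89655312-89742509, minus strand) are neighbours that face each other across 43659 bases. Aggrecan and versican genes therefore each sit beside a gene of the link protein family. Matn1 starts 8243 bases from Laptm5, Matn2 22374 bases from Laptm4b and Matn3 9186 bases from Laptm4a, so 3 of the 4 matrilin genes share a neighbour of 1 family. Matn4 overlaps Rbpjl on the opposite strand, and Hapln1, Vcan and Matn2 overlap predicted or non-coding genes on the opposite strand. Whether reads were counted by strand is not given in the sources used here, so reads of those partners could be counted in these 4 members.

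The stretches before the start sites of 4 members are shown because Acan is the locus that carries the Cre, Matn1 was used to divide the cells, and Matn3 and Vcan stood on opposite sides of that division. Each is the 250 bases upstream of a RefSeq start site (GRCm38.p6), written 5′ to 3′ on the gene's strand, and capitals mark the GC-box GGGCGG on either strand. The windows are chr7:79052976-79053225 (plus strand) for Acan, chr4:130944135-130944384 (plus strand) for Matn1, chr12:8947679-8947928 (plus strand) for Matn3 and chr13:89742513-89742762 (minus strand) for Vcan.
Acan: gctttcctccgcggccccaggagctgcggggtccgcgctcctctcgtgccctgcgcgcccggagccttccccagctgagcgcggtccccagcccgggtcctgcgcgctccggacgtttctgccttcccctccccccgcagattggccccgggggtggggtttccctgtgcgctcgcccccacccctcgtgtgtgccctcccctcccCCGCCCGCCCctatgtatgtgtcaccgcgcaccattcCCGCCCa
Matn1: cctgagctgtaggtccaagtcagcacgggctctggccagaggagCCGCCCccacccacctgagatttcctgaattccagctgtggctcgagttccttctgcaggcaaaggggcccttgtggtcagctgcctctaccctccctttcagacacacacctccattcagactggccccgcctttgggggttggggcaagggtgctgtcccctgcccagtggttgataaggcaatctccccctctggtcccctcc
Matn3: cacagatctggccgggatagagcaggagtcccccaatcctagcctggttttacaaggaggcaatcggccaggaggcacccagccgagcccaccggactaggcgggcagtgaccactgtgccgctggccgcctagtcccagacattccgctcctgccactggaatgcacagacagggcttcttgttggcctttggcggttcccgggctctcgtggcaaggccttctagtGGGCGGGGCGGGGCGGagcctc
Vcan: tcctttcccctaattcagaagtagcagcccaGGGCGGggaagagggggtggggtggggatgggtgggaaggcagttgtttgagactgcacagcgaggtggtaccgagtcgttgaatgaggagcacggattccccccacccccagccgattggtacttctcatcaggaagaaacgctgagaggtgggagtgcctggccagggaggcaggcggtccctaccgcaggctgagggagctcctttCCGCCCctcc
RefSeq promoter windows were matched for 7 of the 10 members (8 windows, with 2 for Matn4), and Matn2, Comp and Snorc were not matched. A GC-box was found in 5 of the 8 windows, those of Acan, Matn1, Matn3, Vcan and 1 of Matn4, against 32.7% of all 32851 mouse promoter windows of the same length. The Acan window holds 3 such matches among 74.4% G and C, and the Matn3 window holds 3 that overlap, close to the start. The STAT-type word TTCNNNGAA was in 0 of the 8 windows and in 7.02% of all, and the SOX-type words ACAAAG or ACAATG were in 0 of 8 and in 25.2% of all, on either strand. A match or its absence describes letters in this window and nothing about binding, and the GC-box was chosen for display after the windows had been read.

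The first comparison asked how the levels of the members differed between the marked cells of the mutant and the control library. Stat3, the targeted gene, stood at 142 CPM in control and 103 CPM in mutant marked cells (log2 ratio -0.45) and was above 0 in 52.1% and 47.3% of them. Reads came from the 3′ end of transcripts and need not cover the floxed exons, so this level does not check the deletion. Acan was the member that differed past 2-fold. It stood at 4837 CPM in control and at 1697 CPM in mutant marked cells, 2.85-fold lower (log2 ratio -1.51). The median control cell held 4405 CPM and the median mutant cell 1041 CPM. The share of cells with Acan above 0 was 95.2% (interval 93.0 to 96.9%) for the control and 76.5% (71.6 to 81.0%) for the mutant library. Of the members, 1 of 10 was at least 2-fold lower, against 5.59% of the 7579 genes with a mean of 10 CPM or more, and 0 of 10 were at least 2-fold higher, against 3.76%. The median log2 ratio of the members was -0.26 and that of all those genes -0.18. The Acan ratio was lower than that of all but 0.871% of the genes. Over all 1013 and 335 cells with Sox9 and Col2a1, hemoglobin RNA or not, the log2 ratio of Acan was -1.31, that of Matn1 0.57 and that of Matn3 0.41.

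**Figure D1:**
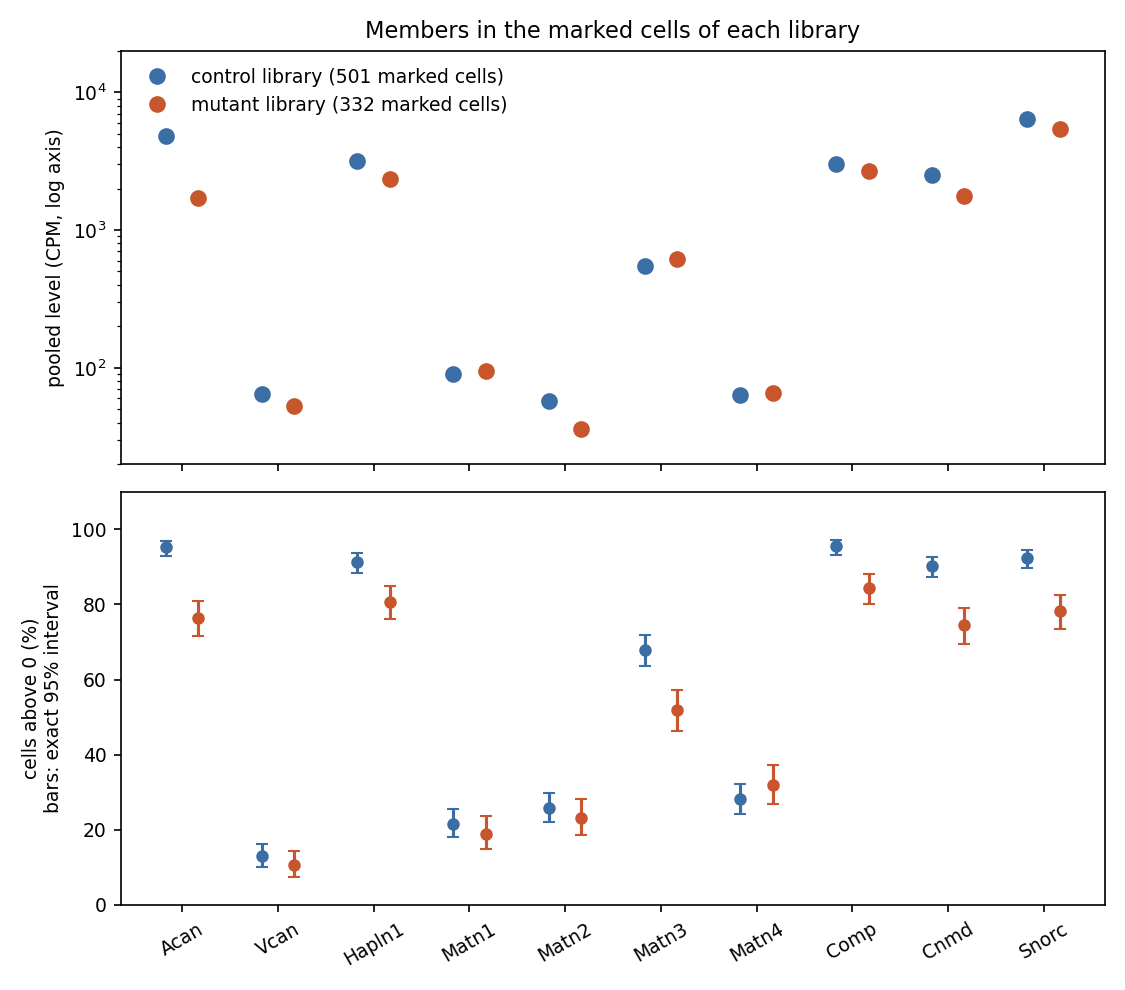
Level of each member in the marked cells of each library (upper panel, pooled CPM on a log axis) and share of marked cells with the gene above 0 (lower panel, percent, with exact 95% intervals for counting error). Acan stands at 4837 CPM in control and at 1697 CPM in mutant cells, the widest gap of the 10, while the levels of Matn1, Matn3 and Matn4 nearly coincide between the libraries. The share of cells with Matn3 does not, at 67.9% and 51.8%.

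The partners of aggrecan on hyaluronan differed less. Hapln1 stood at 3164 CPM in control and 2340 CPM in mutant marked cells (log2 ratio -0.43), and was above 0 in 91.2% and 80.7% of cells. Vcan was low in both, at 64.1 and 52.5 CPM, and was above 0 in 13.0% and 10.5% of cells. Its pooled level rested on few cells, since the 3 highest cells held 29.6% of its UMIs among control cells and 47.9% among mutant ones. Of the control cells with Vcan above 0, 92.3% also had Acan above 0, and of the mutant ones 65.7%.

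The matrilins did not share a direction. Matn1, a matrilin of hyaline cartilage, stood at 89.9 and 95.5 CPM (log2 ratio 0.09) and was above 0 in 21.6% and 19.0% of marked cells. Matn3, a cartilage matrilin whose human gene is mutated in multiple epiphyseal dysplasia, stood at 546 and 612 CPM (log2 ratio 0.17). Its share of cells went the other way, from 67.9% in the control (63.6 to 71.9%) to 51.8% in the mutant library (46.3 to 57.3%), so a pooled level that was not lower came from fewer mutant cells. Matn4 stood at 63.9 and 66.0 CPM and Matn2, a matrilin found in many connective tissues, at 57.3 and 35.8 CPM (log2 ratio -0.66). Matn2 thus had the lowest ratio of the matrilins, short of 2-fold, though its shares of cells lay close together at 25.7% and 23.2% with intervals that overlap.

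COMP, chondromodulin and Snorc were in most marked cells of both libraries. Comp stood at 3016 CPM in control and 2660 CPM in mutant cells (log2 ratio -0.18) and was above 0 in 95.4% and 84.3%. Cnmd stood at 2518 and 1752 CPM (log2 ratio -0.52), above 0 in 90.2% and 74.4%. Snorc stood at 6378 and 5424 CPM (log2 ratio -0.23), above 0 in 92.4% and 78.3%. For Acan, Hapln1, Matn3, Comp, Cnmd and Snorc alike the share of cells above 0 was lower in the mutant library with intervals that do not overlap, although the mutant cells were the deeper ones. None of the 10 members was above 0 in 10 control and 24 mutant marked cells, and the median cell of each library had 6 members above 0.

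The marked cells of the 2 libraries were not the same mixture. Clusters were formed from all cells without the members among the variable genes. Of the control marked cells 445 lay in the 4 chondrocyte-like clusters, and of the mutant 204. Cluster 0 (led by Msmp and Crispld1) held 127 control and 80 mutant marked cells, cluster 6 (Mybpc1, Kcna1) 211 and 10, cluster 16 (Panx3, Ihh, Epyc) 88 and 15, and cluster 17 (Krt16, Il11, Plet1) 19 and 99. Cluster 25, led by Penk and Frzb and left unnamed, held 1 and 27. Another 16 mutant and 2 control marked cells lay in the osteoblast-like cluster, where the mutant marked cells had Acan at 0 in all 16, and 18 and 5 lay in a fibroblast-like cluster. With this the osteoblast markers (7 genes, summed) stood at 4676 CPM in mutant and 983 CPM in control marked cells, and the marrow stromal markers (6 genes) at 382 and 125 CPM. Levels were therefore also compared within clusters, a choice made after the mixture was seen.

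Within the 4 chondrocyte-like clusters Acan was lower in mutant cells throughout, and Hapln1, Comp, Cnmd and Snorc stayed short of 2-fold. Each of the other 5 members went past 2-fold in 1 cluster or more. In cluster 0 Acan stood at 2292 CPM in 127 control cells and 1140 CPM in 80 mutant cells (log2 ratio -1.01), and was above 0 in 94.5% and 96.2% of them. Acan stood at 5463 and 2976 CPM in cluster 6 (log2 ratio -0.88, 10 mutant cells), at 6614 and 1719 CPM in cluster 16 (-1.94, 15 mutant cells) and at 5739 and 2592 CPM in cluster 17 (-1.15, 19 control cells). Over the marked cells of the 4 chondrocyte-like clusters it was -1.29, and -1.25 when the 4 clusters were weighted equally. There 98.4% of control cells and 96.6% of mutant cells had Acan above 0, so the level differed while nearly every cell had it. In the shallow unnamed cluster 11, at 14 and 28 marked cells, Acan went the other way, at 1365 and 1630 CPM, and there 2 members were at least 2-fold lower and 3 higher, against 41.9% and 19.5% of genes.

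Hapln1, Comp, Cnmd and Snorc stood close together between the libraries once cells outside the chondrocyte-like clusters were left out. Hapln1 was at 3379 and 2975 CPM in those cells, Comp at 3124 and 3030, Cnmd at 2684 and 2162, and Snorc at 6777 and 6523. Each was above 0 in 93.1% of them or more in both libraries, so the lower shares over all mutant marked cells went with cells of other clusters. Cluster 25 was an exception among the cells left out. Its 27 mutant marked cells had each gene above 0 in 92.6% or more. Hapln1 stood there at 614 CPM, Comp at 2248, Cnmd at 787, Snorc at 4000 and Acan at 485. At the coarser resolution of 0.5, a chondrocyte-like cluster led by Msmp and Cytl1 held 127 control and 116 mutant marked cells. The cells left out thus depend on the clustering. Across clusters 0, 6, 16 and 17 the log2 ratios ran from -0.40 to 0.21 for Hapln1, from -0.42 to 0.03 for Comp, from -0.49 to -0.14 for Cnmd and from 0.03 to 0.24 for Snorc. Aggrecan was thus lower in the same clusters of mutant cells in which its link protein stood near its control level.

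The rarer members changed more with the mixture. Matn3 stood at 519 CPM in 19 control and 1073 CPM in 99 mutant cells of cluster 17 (log2 ratio 1.05), and at 205 and 213 CPM in cluster 0 (log2 ratio 0.06). Matn4 stood at 36.8 and 82.6 CPM in cluster 17 (log2 ratio 1.15) and at 86.9 and 43.3 CPM in cluster 0 (log2 ratio -0.99). Its direction differed between these clusters, but only 26.3% of the 19 control cells of cluster 17 had it above 0. The level of 3 UMIs in those control cells was 23.2 CPM. Matn2 was lower in the mutant cells of all 4 clusters, at 81.7 and 27.4 CPM in cluster 0. In clusters 6 and 16 its mutant level, 34.1 and 12.7 CPM, lay below the level of 3 UMIs, 34.3 and 19.1 CPM. Vcan in chondrocyte-like marked cells stood at 33.1 and 8.40 CPM (log2 ratio -1.86), but it was above 0 in only 39 control and 14 mutant cells, and 3 cells held 48.5% and 46.2% of its UMIs. In cluster 0, 3 of the 9 members that reached 10 CPM were at least 2-fold lower (Acan, Vcan and Matn2), against 10.8% of the genes there, and 0 were at least 2-fold higher, against 5.12%. In cluster 6 the count was 1 lower (Vcan, at 0 in the 10 mutant cells) and 1 higher (Matn1), against 23.6% and 12.7%. In cluster 16 it was 2 lower (Acan and Matn2) and 0 higher, against 22.9% and 9.01%, and in cluster 17 it was 1 lower (Acan) and 2 higher (Matn3 and Matn4), against 16.6% and 10.9%. With so many genes past 2-fold in clusters of 10 to 19 cells, the counts of these last 3 clusters lie near the background.

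**Figure D2:**
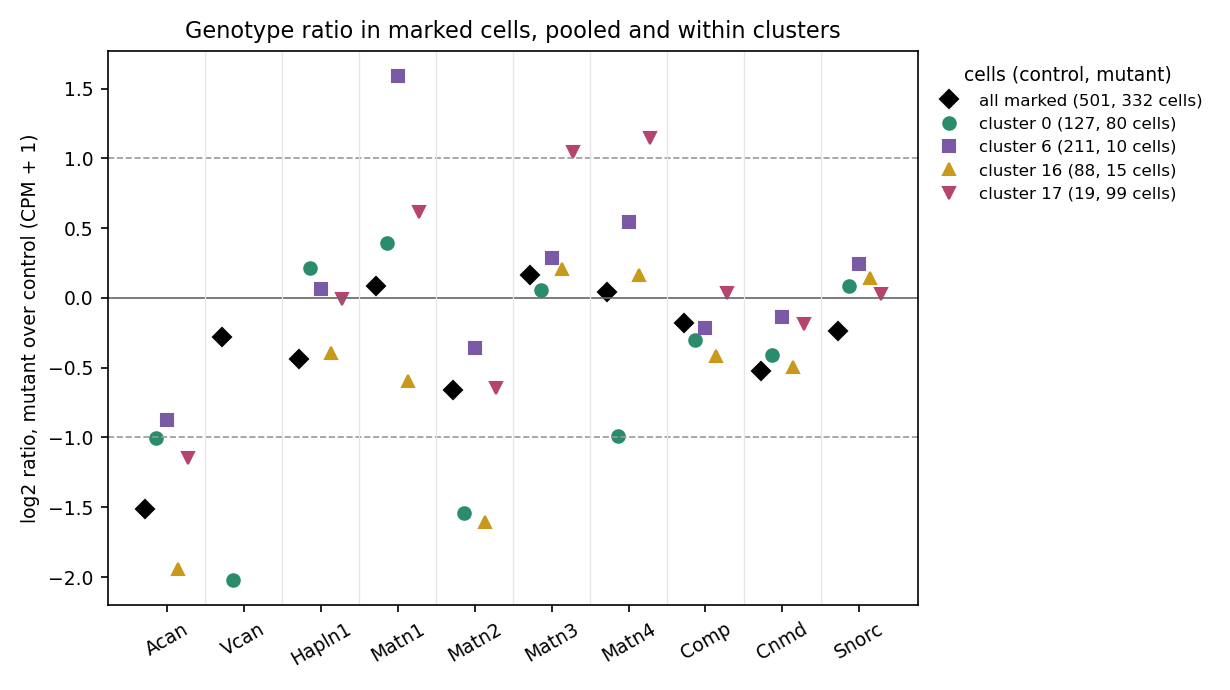
Log2 ratio of mutant over control level of each member (vertical axis, dashed lines at 2-fold), over all marked cells (black diamonds) and within 4 chondrocyte-like clusters (coloured symbols, with the control and mutant cells of each in the legend). Acan lies between -0.88 and -1.94 in the 4 clusters, and Hapln1, Comp, Cnmd and Snorc lie between the dashed lines. Vcan is drawn only where both libraries were above 0 and at least 1 was above the level of 3 UMIs.

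Around the members, the genes of the same families and of the same aggregate gave no common shift. Of 10 family relatives (other lecticans, link proteins, thrombospondins and tenomodulin), 5 reached 10 CPM, of which 1 was at least 2-fold lower: Tnmd, the tendon relative of Cnmd, at 48.4 and 10.3 CPM. Hapln3, the gene next to Acan, was low in both libraries, at 7.05 and 12.7 CPM. Of 12 genes of hyaluronan synthesis, aggregate binding and breakdown, 7 reached 10 CPM, with a median log2 ratio of 0.29 and 0 past 2-fold in either direction. Has2, the hyaluronan synthase, stood at 49.9 and 54.4 CPM, the aggrecanase gene Adamts5 at 31.0 and 38.0 CPM, and Timp3, an inhibitor of aggrecanases, at 228 and 368 CPM. All 14 other cartilage matrix genes reached 10 CPM, with a median log2 ratio of -0.60, below that of the members, and Prelp was the 1 that was 2-fold lower. Col11a1 stood at 11074 and 6774 CPM and Col9a1 at 3763 and 2456 CPM, while Chad stood at 1026 and 1542 CPM. All these levels are over all marked cells, whose clusters differed between the libraries. Over all chondrocyte-like cells the median of the 14 genes was -0.15, with 0 past 2-fold. In marked cells of clusters 0, 6, 16 and 17 it was -0.30, -0.32, -0.64 and 0.03.

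The next comparison asked how the other 9 members stood in marked cells with Matn1 above 0 and in those with Matn1 at 0. Of 501 marked control cells 108 had Matn1 above 0, and of 332 marked mutant cells 63. These cells were deeper than the rest, at a median of 8149 against 5406 UMIs in the control and 15404 against 7912 in the mutant library, so levels in CPM are compared first. Hapln1 was higher with Matn1 in both libraries and Vcan was lower in both. Hapln1 stood at 5097 CPM with Matn1 and 2348 CPM without it in control cells (log2 ratio 1.12), and at 4248 and 1607 CPM in the mutant library (log2 ratio 1.40). Vcan stood at 8.53 against 87.6 CPM in control cells (log2 ratio -3.22) and at 8.04 against 69.6 CPM in mutant cells (log2 ratio -2.97). In the control 1 of 9 members was at least 2-fold higher, against 3.08% of 7590 genes, and 1 of 9 at least 2-fold lower, against 7.06%. In the mutant library 3 of 9 were at least 2-fold higher, against 3.27% of 7213 genes, and 1 of 9 lower, against 8.98%.

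Aggrecan was moderately higher in the cells with Matn1, at 6574 against 4103 CPM in control cells (log2 ratio 0.68) and 2531 against 1376 CPM in mutant cells (log2 ratio 0.88). Snorc, Cnmd and Comp were also on the higher side in both libraries, with log2 ratios of 0.56, 0.48 and 0.26 in the control and 0.87, 0.92 and 0.44 in the mutant library. All 4 genes are known from hyaline cartilage, and none of the 4 genes was 2-fold apart in either library.

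The other matrilins parted from one another. Matn3 stood at 713 CPM with Matn1 and 475 CPM without it in the control (log2 ratio 0.59) and at 1085 and 430 CPM in the mutant library (log2 ratio 1.33). Matn2 was on the lower side with Matn1 in the control, at 42.5 and 63.5 CPM, and on the higher side in the mutant library, at 49.2 and 30.7 CPM. Matn4 likewise stood at 58.0 against 66.4 CPM in control and 105 against 50.9 CPM in mutant cells. The direction of Matn2 and Matn4 relative to Matn1 thus differed between the libraries, and the difference was not tested. Of control cells with Matn1, 96.3% had Matn3, 38.9% Matn4 and 30.6% Matn2 above 0, and of mutant cells with Matn1, 85.7%, 61.9% and 50.8%.

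**Figure D3:**
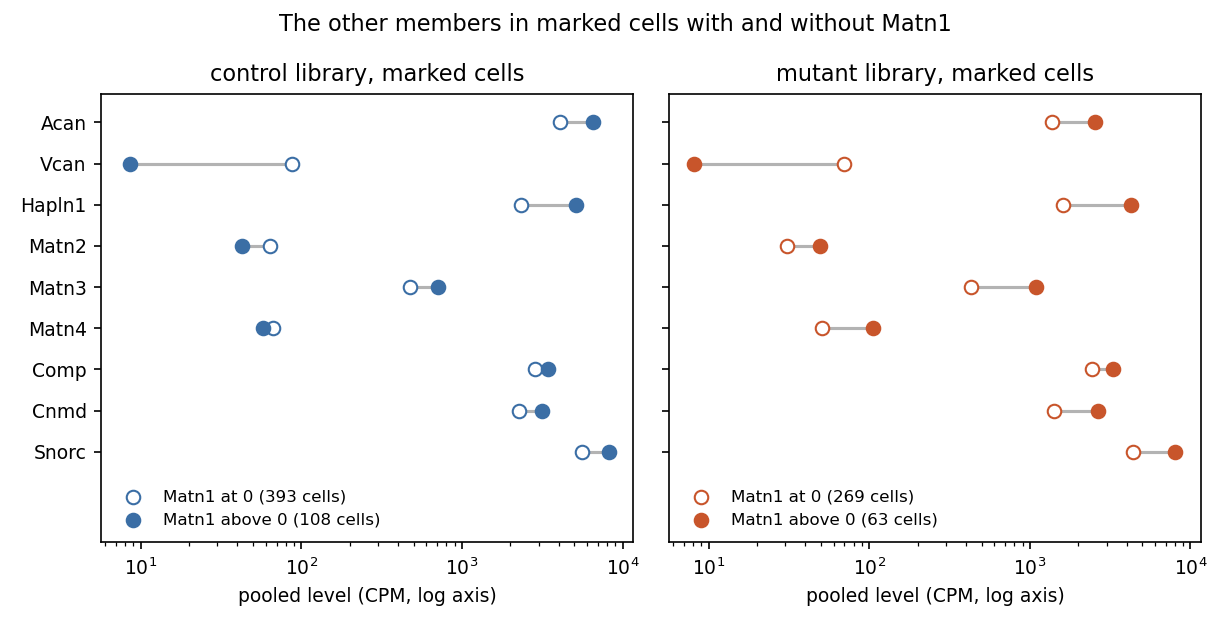
Pooled level (CPM, log axis) of the other 9 members in marked cells with Matn1 at 0 (open circles) and above 0 (filled circles), in the control (left) and mutant library (right). Hapln1 lies to the right and Vcan to the left with Matn1 in both libraries, while Matn2 and Matn4 change sides between them.

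Depth and the mixture of cells were held fixed in turn. With every marked cell thinned to 2323 UMIs (107 and 353 control cells, 59 and 234 mutant cells), Vcan was above 0 in 0.935% of control cells with Matn1 and in 9.07% of those without it. Among mutant cells its shares were 1.69% and 7.26%, with intervals that overlap. Matn3 was above 0 in 78.5% and 49.3% of the control cells and in 79.7% and 32.5% of the mutant cells, and Matn2 in 5.61% and 15% of the control but 10.2% and 5.98% of the mutant cells. The intervals of Matn2 overlap in both libraries, and its unthinned levels with Matn1 rested on 38.7 control and 41.9 mutant UMIs. The directions were those of the CPM, whereas the unthinned share of control cells with Matn2, 30.6% with Matn1 and 24.4% without it, had gone against it. With marked cells of the chondrocyte-like clusters alone, the log2 ratio of Hapln1 was 1.02 for control and 1.03 for mutant cells. That of Matn4 was -0.17 and 0.83, that of Matn3 0.48 and 0.95, and that of Vcan -2.35 and -0.21, so the low Vcan of mutant cells with Matn1 went with cells outside those clusters. The cells with Matn1 were themselves spread differently: 50.9% of the control ones lay in cluster 16 and 36.1% in cluster 6, and 63.5% of the mutant ones in cluster 17.

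The zonal character of the cells moved with Matn1 in both libraries. Of 8 articular-type genes, 7 reached 10 CPM in the control and all 7 were at least 2-fold lower with Matn1, with a median log2 ratio of -2.74. Among them Prg4, the lubricin gene of the joint surface, stood at 233 CPM with Matn1 and 3404 CPM without it. In the mutant library 6 of 7 were at least 2-fold lower (median -2.21), with Prg4 at 353 and 3408 CPM. Of 8 growth plate-type genes, 7 were at least 2-fold higher with Matn1 in the control (median 1.49) and 4 in the mutant library (median 1.01). Panx3, a channel gene of cells entering hypertrophy, stood at 362 against 73.9 CPM in control cells and at 136 against 31.5 CPM in mutant cells. Stat3 was lower in the cells with Matn1 in both, at 93.6 against 162 CPM for control and 57.2 against 121 CPM for mutant cells.

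Set within each side of the Matn1 division, the genotype ratio of Acan was -1.38 with Matn1 and -1.58 without it on the log2 scale, so its lower level was on both sides. With Matn1, 1 of the 8 members that reached 10 CPM was at least 2-fold lower in the mutant library, against 13.7% of genes, and 0 higher, against 6.22%. Without Matn1, 2 of 9 were at least 2-fold lower, Acan and Matn2, against 5.99%, and 0 higher, against 4.18%. Matn3 and Matn4 were on the higher side in mutant cells with Matn1, with log2 ratios of 0.60 and 0.85, and on the lower side in cells without it, at -0.14 and -0.38.

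The last comparison asked in which other cells of the knee the members were found, with tendon and fibroblast cells first. Classes were called from marker genes and each such class is written with "-like". As background from free RNA, 1202 erythroid-like control cells, which do not make cartilage matrix, had Acan above 0 in 3.33%, Comp in 3.08%, Snorc in 2.16% and every other member in fewer, at a median of 5431 UMIs. Other classes stood higher. Thinned to 1042 UMIs, erythroid-like control cells had Acan in 0.265% and Snorc in 0.618%, and mural-like control cells in 11.5% and 14.1%. Mutant mural-like cells (45) had each in 2.22%, and mutant myeloid-like cells (32) had Acan in 0 and Snorc in 12.5%. Only 4 mutant erythroid-like cells were left at that depth, so the erythroid-like background covers the control library alone. Among tenocyte-like cells (403 control, 82 mutant, median 3603 and 4307 UMIs) Comp was the member most often found, though not evenly over their clusters. Comp was above 0 in 80.6% of the control (76.4 to 84.4%) and in 61.0% of the mutant tenocyte-like cells (49.6 to 71.6%), at 3113 and 2764 CPM. The class was a different mixture in each library, since cluster 10 held 240 control and 22 mutant cells and cluster 15 held 109 and 53. With cells thinned to 1042 UMIs, Comp was above 0 in 89.5% and 86.4% of cluster 10 and in 32.1% and 38.0% of cluster 15, with intervals that overlap, so the lower pooled share went with the mixture. In the third tenocyte-like cluster, 24 (54 control and 7 mutant cells), Comp was above 0 in 18.9% and 28.6% at that depth. In chondrocyte-like cells (1034 and 230) it stood at 3099 and 3077 CPM, so the pooled level of Comp was nearly the same in tendon-type and cartilage-type cells. It was highest in cluster 10, led by Angptl7, Kera and Tnmd, at 4768 CPM in 240 control and 5818 CPM in 22 mutant cells.

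Aggrecan, too, was found in tendon-type cells. It was above 0 in 49.6% of the control (44.6 to 54.6%) and in 25.6% of the mutant tenocyte-like cells (16.6 to 36.4%), at 414 and 139 CPM, and in the mutant library 3 cells held 64.9% of its UMIs. Thinned to 1042 UMIs, Acan was above 0 in 26.9%, 28.4% and 5.66% of the control cells of clusters 10, 15 and 24. From chondrocyte-like to tenocyte-like control cells Acan went from 4335 to 414 CPM and Col2a1 from 41783 to 490 CPM. The class included 10 marked control cells of cluster 10, with Acan at 1434 CPM. The part of free RNA in the Acan of tenocyte-like cells was not tested. Matn2 was above 0 in 40.0% and 28.0% of tenocyte-like cells, at 188 and 76.6 CPM, against 23.2% and 30.9% of chondrocyte-like cells at 62.3 and 43.4 CPM. Hapln1 was above 0 in 25.6% and 23.2%, Vcan in 38.7% and 26.8%, and Matn4 in 19.1% and 22.0%, at 78.8 and 87.4 CPM. Matn1 was above 0 in 1 cell of each library. Matn3 was above 0 in 18 control cells, 4.47% (2.67 to 6.97%), and in 1 mutant cell, and after thinning to 1042 UMIs it was above 0 in 0.75% of control tenocyte-like cells and 0 of 1132 erythroid-like cells. In the 2-fold count, 4 of the 8 members that reached 10 CPM were at least 2-fold lower in mutant tenocyte-like cells (Acan, Matn2, Cnmd and Snorc), against 10.3% of genes, and 0 higher, against 7.62%. Snorc and Cnmd there were sparse: 3 of 403 control cells held 74.0% of the Snorc UMIs. Markers of other cells moved with them: of the 8 chondrocyte markers, 7 were at least 2-fold lower in mutant tenocyte-like cells, their sum going from 3175 to 1026 CPM, and the sum of 5 erythroid markers went from 506 to 25.6 CPM. Their part in these ratios was not tested.

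Vcan was above 0 in a larger share of fibroblast-like cells (369 control, 239 mutant) than of chondrocyte-like or tenocyte-like cells. It was above 0 in 80.8% (76.4 to 84.7%) of the control ones and 56.1% (49.5 to 62.5%) of the mutant ones, at 1073 and 581 CPM, while chondrocyte-like cells held 50.2 and 9.61 CPM. Vcan and Acan, the pair of large hyaluronan-binding proteoglycans, thus stood in opposite order across these classes, since Acan stood at 86.3 and 35.9 CPM in fibroblast-like cells. Comp was above 0 in 42.5% and 47.7%, at 629 and 1195 CPM, and Matn2 in 21.4% and 15.9%. This class, too, was a different mixture, with 197 control and 210 mutant cells in cluster 5 and 172 and 29 in cluster 14. Comp stood at 1038 and 1243 CPM in cluster 5, and after thinning was above 0 in 38.8% and 35.8% there, while it stood at 132 and 950 CPM in cluster 14, where 3 of 29 mutant cells held 75.1% of its UMIs. Vcan stood at 872 and 559 CPM in cluster 5 and at 1317 and 692 CPM in cluster 14, lower in mutant cells of both, although its thinned shares in cluster 14, 60.5% and 50%, had intervals that overlap. Matn1, Matn3 and Matn4 were each above 0 in at most 5.86% of fibroblast-like cells of either library, and Matn1 in 0 of 369 control cells, which at a limit of 3 counts allows up to 0.813% of cells with a UMI and sets no limit on cells that express it. With fibroblasts chosen by Pdgfra and Dpt above 0 and Tnmd at 0 in place of clusters, Matn4 was above 0 in 18.1% and 26.2% of cells. Of the 9 members that reached 10 CPM, 4 were at least 2-fold lower in the mutant library (Acan, Hapln1, Matn3 and Snorc), against 9.92% of genes, and 0 higher, against 4.98%. In the same cells Col2a1 went from 812 to 206 CPM, the sum of the 8 chondrocyte markers from 1249 to 506 CPM and that of the 5 erythroid markers from 614 to 2.04 CPM, and their part was not tested. Thinned to 1042 UMIs per cell, Vcan was above 0 in 53.7% and 29.9% of fibroblast-like cells and in 4.89% and 0.444% of chondrocyte-like cells, so the order was the same at equal depth. Within the tenocyte-like class, 50% of the 22 mutant cells of cluster 10 had Vcan above 0 at that depth.

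Among the remaining cells, Matn4 stood out in an unnamed cluster led by Clic5, Prg4 and Htra4, where 57.0% of 237 control cells and 65.0% of 60 mutant cells had it above 0, at 245 and 329 CPM. Matn4 in chondrocyte-like cells stood at 81.7 and 80.4 CPM, so its highest level was outside cartilage-type cells in both libraries. Of 155 control cells 62.6% and of 63 mutant cells 61.9% had Vcan above 0 in an unnamed cluster led by Col10a1, Spp1 and Mmp13, at 1106 and 813 CPM, close to its fibroblast-like level in the control. In osteoblast-like cells (109 and 98) Acan was at 24.0 and 5.57 CPM and Matn1 at 0 in both libraries. The log2 ratio of Acan between the genotypes was -1.09 in chondrocyte-like, -1.56 in tenocyte-like, -1.24 in fibroblast-like, -1.93 in osteoblast-like and -1.40 in marrow stromal cell-like cells, and the lower mutant level was found in all 5. The osteoblast-like value rests on 10.7 and 3.97 UMIs. Beside it the log2 ratio of Col2a1 was -0.11, -2.76, -1.97, 1.61 and -2.07 in the same order of classes, and the summed erythroid markers were lower in mutant cells of all 5. Chondrocyte-like cells had 2 members at least 2-fold lower (Acan and Vcan) and 0 higher, against 7.71% and 3% of genes. Osteoblast-like cells had 4 of 6 lower (Acan, Vcan, Comp and Snorc) and 0 higher, against 11.4% and 7.47%, and marrow stromal cell-like cells 2 of 8 lower (Acan and Comp) and 1 higher (Snorc), against 14% and 7.54%. These genes were sparse in osteoblast-like cells. Thinned to 1042 UMIs, Vcan was above 0 in 14.6% and 3.37% of them, and Acan, Comp and Snorc in at most 7.29% of either library. In erythroid-like control cells Acan stood at 11.7 CPM, and the part of free RNA in the levels outside cartilage-type cells was not tested.

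**Figure D4:**
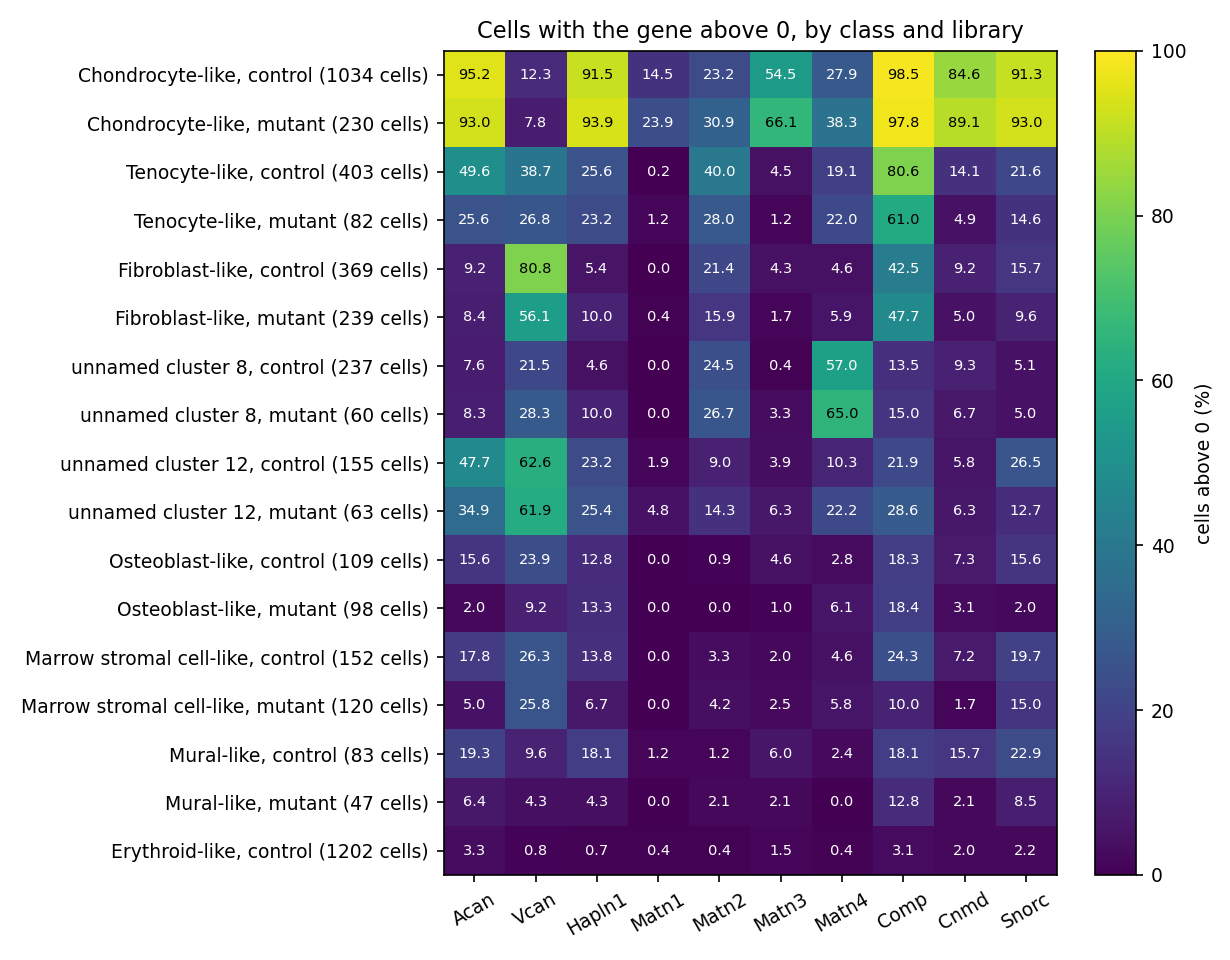
Percent of cells with each member above 0 (columns) in classes and clusters of each library (rows, with the number of cells), on a scale from 0 to 100. Acan, Hapln1, Cnmd and Snorc are above 0 in 84.6% or more of chondrocyte-like cells, Comp also in 80.6% and 61.0% of tenocyte-like cells, Vcan in 80.8% and 56.1% of fibroblast-like cells and Matn4 in 57.0% and 65.0% of the Prg4-led cluster, while erythroid-like cells of the control stay at 3.33% or less for every member.

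Over 14 groups of class and library with at least 50 cells, the members fell into patterns that can be described by likeness of level (Pearson r of log2(CPM + 1), among 4309 genes, with groups that share a library and its depth). The genes most like Acan were Scrg1 (r = 0.96), Ucma and Ddah1, and those most like Hapln1 were Crispld1 (r = 0.94), Ucma and Scrg1. Acan and Hapln1 had r = 0.92 with each other. Matn1 was most like Epyc (r = 0.95), Mia and Ncmap, Cnmd most like Mia (r = 0.96), Col9a1 and Epyc, Snorc most like Col9a2 (r = 0.96), Col9a1 and Col27a1, and Matn3 most like Ucma (r = 0.92), Scrg1 and Col9a1. These 6 members shared genes of hyaline cartilage among their nearest. Matn2 was most like Cdon (r = 0.96), Angptl1 and Sema3c, Matn4 most like Col16a1 (r = 0.93), Fibin and Ccn2, Comp most like Tgfbi (r = 0.94), Crispld2 and H19, and Vcan most like Mfap2 (r = 0.95), Bicc1 and Dpysl2. Vcan and Acan had r = 0.18 over the same groups, and Vcan and Cnmd r = -0.19.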

How the data were processed

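Single-cell RNA was measured with 10x 3′ chemistry in 1 control and 1 mutant library. Per the labels and the study's methods, the authors aligned reads to mm10 with STAR 2.7.3a in Partek Flow, counted unique molecules per gene, removed ambient RNA with SoupX and deposited log2(CPM + 1) values per cell. The deposited tables also give each cell's total as an estimated count, a percent of mitochondrial counts and, as a score, the number of genes above 0, and the authors' Classify column gives the marked cells. The deposited totals and values were used to recover estimated UMIs, of which 74.9% (control) and 97.3% (mutant) lay within 0.1 of a whole number. Cells with more than 5% mitochondrial counts are present in the tables and were kept.

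UMIs were summed over cells and scaled to CPM, and log2 ratios used a pseudocount of 1 CPM. A 2-fold difference was counted among genes with a mean of at least 10 CPM. No test was made, since each genotype has 1 library. Of all cells, 2 barcodes were shared between the libraries. Cells were clustered (Scanpy 1.11.5, 2000 variable genes without the members, 30 components, 15 neighbours, leidenalg 0.10.2 at resolution 1) and clusters were named from marker lists, with at least 3 markers detected in 10% of cells and raised 2-fold. Low-depth clusters and those whose leading genes went against the name stayed unnamed. Scrublet called 74 control and 2 mutant doublets, too few in the mutant library to say that it worked, and doublets were kept.

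The genes named are the members, Stat3, Sox9 and Col2a1, the 3 genes most like each member, and from each list at most the 3 highest and 3 lowest, with a few others (Adamts5, Hapln3, Col9a1) chosen after their values were seen. The members and lists were chosen with earlier results of these data known. The ratio code was tested on simulated data with 200 changed genes. Alternatives were other pseudocounts, cell weighting, scaling, cell sets, mitochondrial and doublet filters, thinning and clustering. Intervals are exact Clopper-Pearson, at 95%.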

Additional observations from a re-analysis of the deposited data

Results flagged for a closer look

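Snorc differed in direction between classes of cells. Its genotype log2 ratio was 1.45 in marrow stromal cell-like cells, -2.48 in tenocyte-like, -2.70 in fibroblast-like and -2.93 in osteoblast-like cells, so the marrow stromal value lay 3.93, 4.14 and 4.37 above those of the other 3 classes. The difference was not tested, with 1 library on each side. In the marrow stromal cell-like cells 3 of 120 mutant cells held 93.9% of the Snorc UMIs, and Snorc was above 0 in 15% of mutant and 19.7% of control cells. In the tenocyte-like and fibroblast-like control cells 3 cells held 74.0% and 59.9% of the Snorc UMIs. Thinned to 1042 UMIs, Snorc was above 0 in 3.1% of 96 control and in 0 of 89 mutant osteoblast-like cells.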

How the results depend on the processing

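No paired analysis was possible because each genotype has 1 library and the labels carry no replicate numbers. The Acan ratio stayed below -1 on the log2 scale in all 14 alternatives (-1.65 to -1.09), and the median of the members stayed within the limit of 1.5-fold of its value in all 14. The number of members past 2-fold between genotypes was 2 in place of 1 in cells holding 2 or more UMIs of each selecting gene (Sox9, Col2a1), over all cells of chondrocyte-like clusters, and, as alternatives chosen after seeing the data, over the marked cells of those clusters and with those clusters weighted equally. In these 4 the second was Vcan, and after thinning to 2323 UMIs, where the number was also 2, it was Matn2. Scaling by the median of ratios moved every value up by 0.16, turned the sign of no member and left Acan at -1.35. The number of members at least 2-fold higher with Matn1 was 1 in the control in all 11 alternatives, always Hapln1. In the mutant library, where it was 3, it was 5 with cells weighted equally, 5 after thinning and 1 over marked cells of chondrocyte-like clusters. The share of all genes past 2-fold was not counted in these alternatives. The exception was the genotype ratio over all chondrocyte-like cells (7.71% lower, 3% higher). The other numbers of members past 2-fold under alternatives thus have no background beside them. The number of members above 0 in 10% or more of cells fell with depth: after thinning to 1042 UMIs it was 4 in place of 8 in control and 3 in place of 7 in mutant tenocyte-like cells, and 2 in place of 4 in fibroblast-like cells of each library, and with at least 2 UMIs it was 4 in control tenocyte-like cells and 2 in fibroblast-like cells of each library. Vcan was in so few marked cells that its genotype ratio ran from -2.27 to 0.30. Of the values for single members, 107 moved by more than their limit and 471 did not, and 0 of those past 2-fold turned in sign. The genotype ratios of Hapln1, Vcan, Matn1, Matn3, Matn4 and Snorc, short of 2-fold, each took the other sign in 1 or more alternatives.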
